A study of Mus musculus with 16 samples.

Results

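Intracellular activation of glucocorticoid was followed through 4 genes, Hsd11b1, H6pd, Hsd11b2 and Nr3c1, in mouse bone marrow stromal cells under osteogenic culture. All array probes annotated to these genes, under current or former symbols, were taken: 7 of 25697 probes on the array, of which 4 belong to Hsd11b1 and 1 to each of the others. The values are log2 probe intensities of 16 Illumina BeadChip arrays, 8 of wild type and 8 of Hdac3 CKO cultures, all grown for 7 days under osteogenic conditions. Hdac3 CKO denotes conditional knockout of the histone deacetylase gene Hdac3 by Cre recombinase driven by the Osterix promoter, which is active in the osteoblast lineage, so that other cells of the culture can keep the gene. All animals had a mixed CD1/C57BL6 background, and the labels give neither their age nor how many gave cells to a culture. Whether wild type animals carried the Cre transgene is not given in the sources used here.

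Hsd11b1 encodes the reductase that regenerates active glucocorticoid, corticosterone in mice, from its inert 11-keto form inside the endoplasmic reticulum. It depends on NADPH made in the same compartment by hexose-6-phosphate dehydrogenase, the product of H6pd. Hsd11b2 encodes the opposing dehydrogenase that inactivates the hormone, and Nr3c1 encodes the glucocorticoid receptor. In bone and in fat, local activation adds to the hormone that arrives from the adrenal gland, and glucocorticoid is known to act on both osteoblast and adipocyte differentiation.

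The start regions of the genes of the paired reductase and cofactor enzyme are shown because both had higher mean levels in the Hdac3 CKO cultures. Each is the RefSeq window (GRCm38.p6) of 250 bases before to 50 bases after the annotated start, 5′ to 3′ on the gene's own strand. The Hsd11b1 window is chr1:193242311-193242610 and the H6pd window chr4:150003187-150003486, both on the minus strand. Capitals mark matches, on either strand, to CCAAT (the CCAAT box), TTGCNNAA (a C/EBP motif), TGTTCT (a glucocorticoid receptor half-site), the full palindromic glucocorticoid response element, TATAAA and TGACGTCA (the cAMP response element).
Hsd11b1: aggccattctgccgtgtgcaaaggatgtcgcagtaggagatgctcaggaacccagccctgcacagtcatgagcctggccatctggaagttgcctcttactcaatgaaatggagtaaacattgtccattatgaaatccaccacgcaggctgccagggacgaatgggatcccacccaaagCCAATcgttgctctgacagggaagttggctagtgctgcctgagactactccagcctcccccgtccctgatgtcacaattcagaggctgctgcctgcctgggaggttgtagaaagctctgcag
H6pd: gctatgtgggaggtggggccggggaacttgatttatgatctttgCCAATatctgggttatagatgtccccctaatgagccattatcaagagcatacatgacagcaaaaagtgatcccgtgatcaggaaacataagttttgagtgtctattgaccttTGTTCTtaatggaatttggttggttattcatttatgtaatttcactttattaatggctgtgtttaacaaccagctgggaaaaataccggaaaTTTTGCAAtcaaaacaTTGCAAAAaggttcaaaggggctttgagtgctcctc

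The Hsd11b1 window held a single match, a CCAAT box at bases 179 to 183, a motif present in 37.4% of all 32851 RefSeq windows of this length. The H6pd window held a CCAAT box at bases 45 to 49 and a TGTTCT half-site at bases 157 to 162, which occurs in 19.0% of windows. It also held TTGCNNAA at bases 249 to 256 and again at 265 to 272, against a share of 10.8% of all windows with at least 1 match. Neither window held the full glucocorticoid response element, TATAAA or TGACGTCA, present in 0.475%, 13.6% and 1.79% of windows.

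Each array is called WT or CKO with its title number. Neighbouring numbers, with gaps of at most 4, make up 5 runs, in each of which the genotypes have equal numbers of arrays. Run 1 is WT5 and CKO7. Run 2 is WT13, WT14, CKO15 and CKO16, and run 3 is WT21, WT22, CKO23 and CKO24. Run 4 is WT30 and CKO32, and run 5 is WT42, WT44, CKO46 and CKO47. What the numbers stand for is not stated, nor whether arrays came from separate animals, so p-values reflect the spread among these arrays alone, which may be technical. Array medians lay between 97.1 and 97.2 intensity units, and Hdac3 itself, the targeted gene, stood at 10.42 ± 0.085 in wild type and 10.25 ± 0.077 in Hdac3 CKO cultures (log2, SD, n = 8 each). The difference of -0.17 did not pass (limma adjusted p = 0.932 without a block and 0.162 with the runs as a block, exact permutation p = 0.00249), and whether its probe lies in the deleted part is not known here. Within runs it went from -0.32 in run 2 to -0.019 in run 5, where CKO47 (10.38) lay above WT44 (10.29). The wild type arrays WT13 and WT14 lacked the Y-linked transcript Eif2s3y (log2 5.89 and 6.17), whereas it was at 8.28 or more on the other 14 arrays. Of 10 measured osteoblast markers 8 lay above the median probe, and the mean of the list was log2 9.41 to 11.14 over all arrays.

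Hsd11b1 was the member that differed between genotypes. Its brightest probe, ILMN_3115917, ranged from log2 7.14 (WT44) through a median of 7.91 to 8.75 (WT30) in wild type cultures. In Hdac3 CKO cultures it ranged from 7.93 (CKO7) through a median of 9.29 to 10.51 (CKO15). The groups overlapped through CKO7, and 1 probe of the whole array, not of these genes (0.00389%), had every Hdac3 CKO array above every wild type array. The other 7 Hdac3 CKO arrays, the lowest at 8.97 (CKO24), lay above all 8 wild type arrays for Hsd11b1. Within each run every Hdac3 CKO array lay above every wild type array, which held for 0.463% of all probes.

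Wild type cultures had a mean level of 7.81 ± 0.50 and Hdac3 CKO cultures one of 9.38 ± 0.81 (log2, SD, n = 8 each), a difference of 1.57. With the runs as a fixed block in limma, Hsd11b1 rose 2.97-fold (95% interval 2.21 to 4.0, adjusted p = 0.00377), in a fit that called 0.218% of all probes and 0.171% as higher in Hdac3 CKO and 0.0467% as lower. This was the highest estimated difference among all 25697 probes. Without a block the same difference had a standard error (SE) of 0.31 in place of 0.20 and did not pass (limma adjusted p = 0.800), in a fit that called 0 of 25697 probes, with 4.74% at an unadjusted p under 0.05. The rank sum test called 0 as well, but its smallest possible p of 0.000155 can pass over 25697 probes only if many probes reach it. It therefore says little here. The exact two-sided permutation test over the 12870 possible arrangements gave p = 0.000622 (smallest possible 0.000155). Over the 864 arrangements within runs the exact p was 0.00231, the smallest they can give. The call with the runs as a block did not hold with the runs as a random block (adjusted p = 0.136), when each run gave 1 pair of genotype means (0.299) or without run 2 (difference 1.26, adjusted p = 0.0632).

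**Figure D1:**
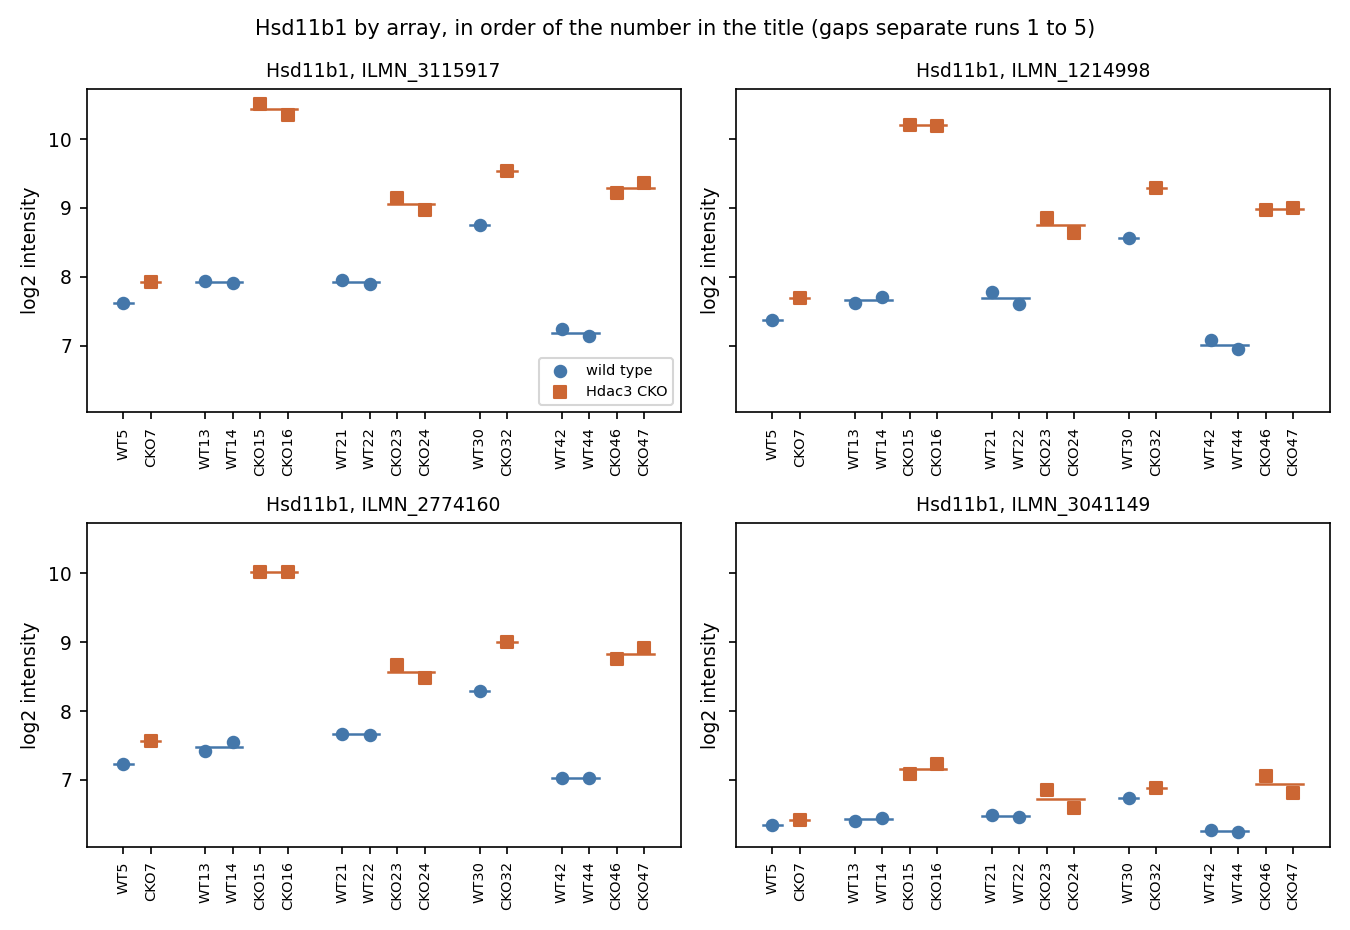
Log2 intensity of the 4 Hsd11b1 probes on each of the 16 arrays, ordered by title number with a gap between runs; circles are wild type, squares Hdac3 CKO, and lines the mean of each run and genotype. In every run the squares lie above the circles on all 4 probes, with the widest separation in run 2 and the narrowest in run 1.

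The other Hsd11b1 probes gave the same order of groups. Probe ILMN_1214998 rose 2.88-fold (log2 7.58 ± 0.49 against 9.11 ± 0.82, adjusted p = 0.00446) and ILMN_2774160 rose 2.72-fold (7.48 ± 0.41 against 8.93 ± 0.81, adjusted p = 0.00792, limma with the runs as a block, n = 8 each). The dimmest, ILMN_3041149, had means of 6.42 ± 0.15 and 6.87 ± 0.27 (n = 8 each) and rose 1.36-fold (limma adjusted p = 0.0392), a call lost if any of 11 of the 16 arrays was left out, the adjusted p then reaching 0.125. It lay at the 51.7th percentile of all probes by mean level and the other 3 probes at percentiles of 74.3 to 78.0. When the lowest intensity of each array was subtracted first, the dimmest probe differed by 0.70 in place of 0.44, and the brightest by 1.75 in place of 1.57. The 3 brighter probes had a Pearson r of 0.995 or more with each other over the 16 arrays, and the dimmest had 0.961 to 0.968 with them, as a description of arrays that share their RNA. All 4 probes carry the same transcript accession in the platform annotation, and which part of the transcript each detects is not known here.

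The size of the Hsd11b1 difference varied between runs. In run 1 the single arrays stood at log2 7.62 (WT5) and 7.93 (CKO7), a 1.23-fold difference. In run 2 the wild type arrays stood at 7.94 and 7.91 and the Hdac3 CKO arrays at 10.51 and 10.35, a 5.67-fold difference. Both of the highest arrays of the series were therefore from run 2, while its wild type arrays lay close to the median of their group. In this run the genotypes also differed in Y-linked RNA. Eif2s3y stood at log2 5.89 and 6.17 on WT13 and WT14 and at 9.75 and 9.78 on CKO15 and CKO16. A smaller difference of the other sign was present in run 4, with 9.78 on WT30 and 8.28 on CKO32. The part of the run 2 imbalance in the Hsd11b1 difference of that run was not tested. In run 3 the levels were 7.95 and 7.90 against 9.14 and 8.97, 2.19-fold. In run 4 they were 8.75 against 9.54, 1.73-fold, and in run 5 they were 7.24 and 7.14 against 9.22 and 9.36, 4.29-fold. Run 4 thus held the highest wild type level and run 5 the 2 lowest.

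Arrays of the same run and genotype differed by at most 0.17 (6 pairs, median gap 0.12), much less than the spread within either genotype. A test of whether the genotype difference varied between runs, the run by genotype interaction in limma, passed for the 3 brighter probes with an adjusted p of 0.000158 for ILMN_3115917, 0.000212 for ILMN_1214998 and 0.000118 for ILMN_2774160. It called 0.494% of all probes. The dimmest probe did not pass (adjusted p = 0.294). The spread in this test is that between arrays which share run and genotype, not known to be separate cultures, and runs 1 and 4 hold no such pair. Without run 2 the adjusted p was 0.0481 (brightest probe), and it was 0.0715 with the adipocyte marker level as a covariate, a setting chosen after seeing the data. Averaged over the genotypes, in a fit without the interaction, the level also differed between runs (limma, adjusted p = 0.0262, a call made for 20.1% of all probes). The order of runs was not the same in both genotypes. The lowest mean was that of run 5 in wild type (7.19) and of run 1 in Hdac3 CKO (7.93).

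**Figure D2:**
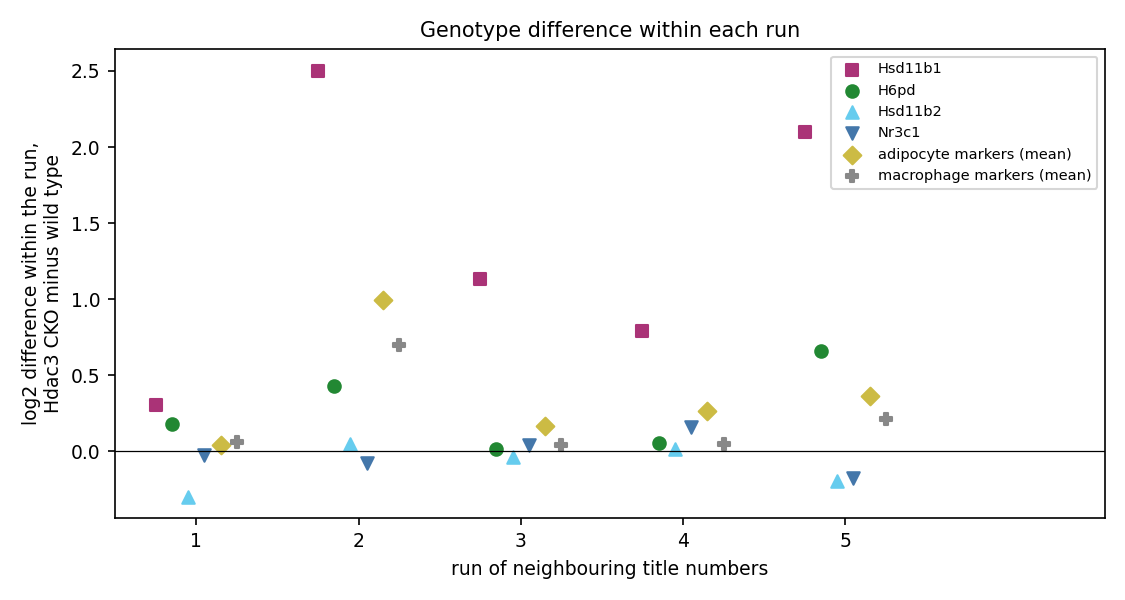
Difference of mean log2 intensity between Hdac3 CKO and wild type arrays within each of the 5 runs, for the brightest Hsd11b1 probe, the other 3 members and the means of the adipocyte and macrophage marker lists. Hsd11b1 is above 0 in 5 of 5 runs and reaches 2.50 in run 2 and 2.10 in run 5, while Hsd11b2 and Nr3c1 lie on both sides of 0.

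H6pd had a higher mean in Hdac3 CKO cultures but did not pass. Its probe, ILMN_1244188, ranged from log2 9.90 (WT42) through a median of 10.25 to 10.64 (WT30) in wild type cultures. In Hdac3 CKO cultures it ranged from 10.20 (CKO7) through a median of 10.56 to 10.83 (CKO47), so the groups overlapped over most of their range. The means were 10.24 ± 0.25 and 10.54 ± 0.22 (SD, n = 8 each). The difference was 1.23-fold (log2 0.30, 95% interval 0.12 to 0.49 with the runs as a block). The adjusted p was 0.183 with the block and 0.932 without it (limma). The exact permutation p was 0.0247 over all arrangements and 0.00926 within runs. H6pd was higher in 5 of 5 runs, as were 4.32% of all probes, by 1.58-fold in run 5, 1.34-fold in run 2 and 1.13-fold in run 1. In runs 3 and 4 the folds were 1.01 and 1.04. The log2 differences of runs 1, 3 and 4 (0.18, 0.012 and 0.054) were less than the largest gap of 0.38 between H6pd arrays of the same run and genotype, and that of run 2 (0.43) was close to it. The interaction of run and genotype did not pass (adjusted p = 0.615), except when the macrophage marker level was added as a covariate (0.00924).

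H6pd and Hsd11b1 levels were correlated over the 16 arrays. Pearson's r was 0.821 (permutation p = 0.00015, adjusted 0.0009) and Spearman's rho 0.838 (permutation p = 0.0001, adjusted 0.0006) over 16 arrays, in a family of 6 relations. Without CKO15 and CKO16, the arrays farthest from the Hsd11b1 median, r was 0.827, and with run means subtracted it was 0.800. When means of every run and genotype were subtracted, which leaves the small gaps within 6 pairs of arrays, r was -0.273 for H6pd, against 0.667, 0.626 and -0.0787 for the other Hsd11b1 probes. Within wild type arrays r was 0.880 (exact permutation p = 0.00575, adjusted over 12 relations 0.0345, rho 0.762, adjusted p = 0.147) and 0.843 without WT30 and WT44. Within Hdac3 CKO arrays it was 0.686 (exact p = 0.0561, adjusted 0.179). WT30 was the highest wild type array for both genes. The permutations over 16 arrays exchange arrays across genotypes and runs, so their p-values may be too small. The 8 arrays of a genotype come from 5 runs and are not known to be independent.

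Hsd11b2 lay among the dimmest probes and showed no difference that passed. Its probe, ILMN_2731265, was at the 10.4th percentile of all probes, with log2 5.90 (WT21), a median of 6.22 and 6.42 (WT44) in wild type cultures. In Hdac3 CKO cultures the lowest was 5.97 (CKO46), the median 6.06 and the highest 6.37 (CKO15), inside the wild type range. The difference was -0.081 (95% interval -0.24 to 0.072 with the block, limma adjusted p = 0.754, and 0.936 without it; exact permutation p = 0.305). It was positive in 2 of 5 runs. No detection p-values were used, so whether this probe measured any transcript is not known, and the interval limits only the change of its intensity.

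Nr3c1, the receptor gene, also showed no difference that passed. Its probe, ILMN_2740568, ranged from log2 6.42 (WT30) through a median of 6.57 to 6.81 (WT44) in wild type and from 6.36 (CKO46) through 6.56 to 6.64 (CKO7) in Hdac3 CKO cultures. The groups overlapped between 6.42 and 6.64, where 12 of the 16 arrays lay, and 15 of the 16 arrays lay between 6.36 and 6.66. The difference was -0.036 (95% interval -0.16 to 0.088 with the block, limma adjusted p = 0.888, and 0.967 without it; exact permutation p = 0.533), and its sign turned without WT44. The probe lay at the 48.6th percentile, where intensities include background that compresses folds, and which of the Nr3c1 transcripts it detects is not known here.

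**Figure D3:**
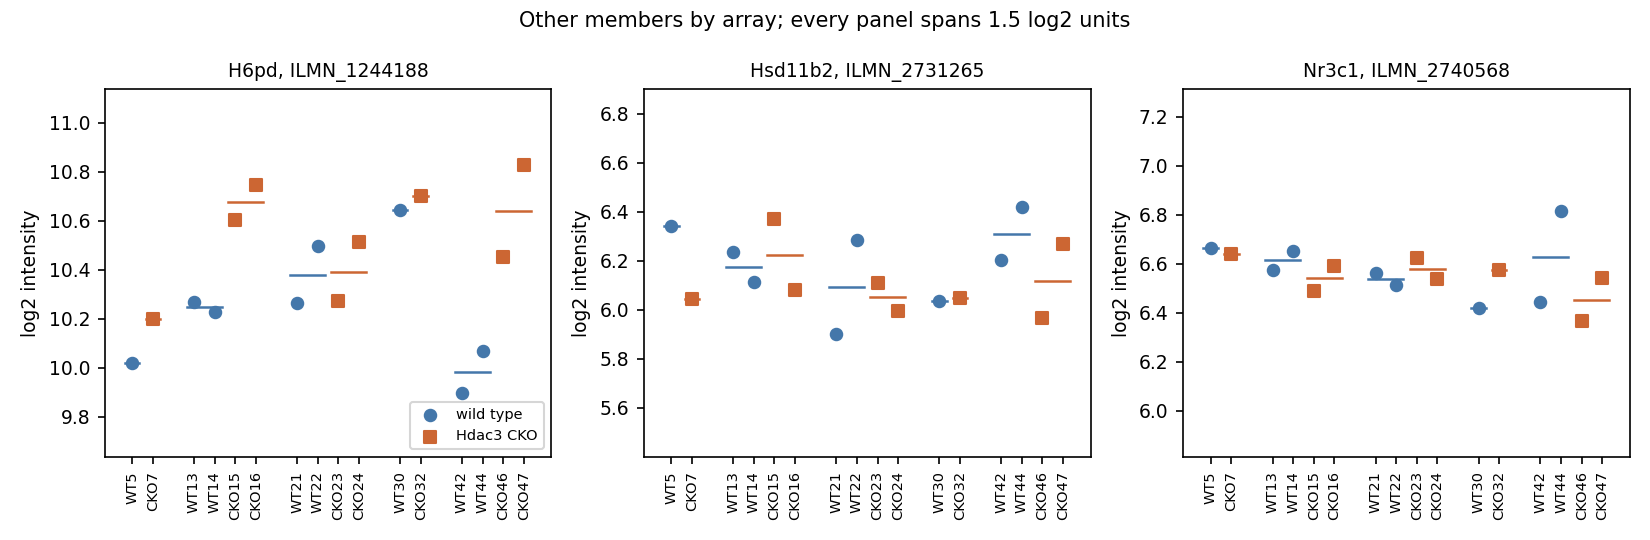
Log2 intensity of H6pd, Hsd11b2 and Nr3c1 on each array, in the order of title numbers; circles are wild type, squares Hdac3 CKO, lines the mean of each run and genotype, and each panel spans 1.5 log2 units. For H6pd the lines part in runs 2 and 5, and for the other 2 genes circles and squares intermix.

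**Figure D4:**
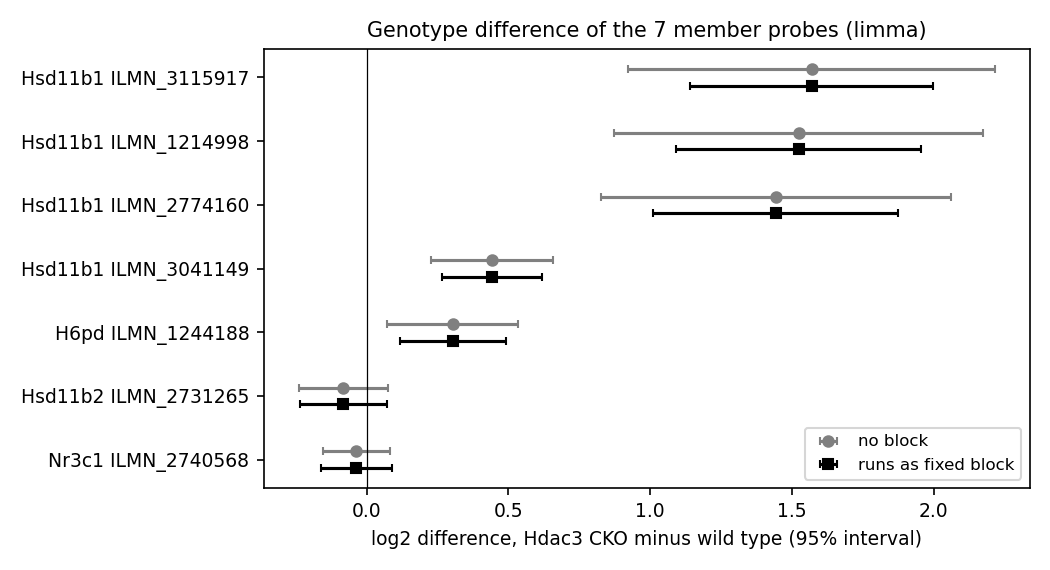
Genotype difference (log2, Hdac3 CKO minus wild type) of the 7 member probes with 95% intervals from limma, without a block (circles) and with the runs as a fixed block (squares), from 16 arrays. The intervals of the 4 Hsd11b1 probes and of H6pd lie above 0 in both fits, and those of Hsd11b2 and Nr3c1 include 0.

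The genes around these members mostly showed no difference that passed. Among 11 measured genes of NADPH supply, 0 passed in either direction, with 6 higher and a median difference of 0.0072, against 0.00071 over all 16593 genes. After H6pd the smallest p-values were those of Rpia, a pentose phosphate pathway isomerase gene (log2 -0.14, limma adjusted p = 0.278 with the block), and G6pc3, which encodes a glucose-6-phosphatase (-0.18, adjusted p = 0.293). Of 13 measured genes of glucocorticoid metabolism, transport and efflux, Hsd11b1 alone rose and none fell, with a median of 0.0082. Over all 16593 genes 35 were called as higher and 8 as lower with the block. Of 10 measured genes of adrenal steroid synthesis 0 passed and 1 lay above the median probe. Their lowest p-values belonged to the electron carrier gene Fdx1 (0.067), the dehydrogenase gene Hsd3b1 (0.065) and the steroidogenic factor gene Nr5a1 (0.050), with adjusted p from 0.679 to 0.768.

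The receptor's partners were likewise without a call. Of 14 measured chaperones and cochaperones 0 passed (9 higher, median 0.046). Fkbp5, a cochaperone that lowers hormone binding and is itself induced by glucocorticoid, differed by 0.25 (limma adjusted p = 0.0999 with the block, and 0.0100 without run 4 or either of its arrays). The cyclophilin gene Ppid differed by -0.17 (0.446) and Fkbp4, which helps the receptor to the nucleus, by -0.099 (0.494). Of 11 measured receptor and coregulator genes 0 passed (8 higher, median 0.0065), the smallest p-values being those of the coactivators Ncoa1 (0.16, adjusted p = 0.555) and Ncoa2 (0.053, 0.807) and the importin Ipo13 (0.046, 0.822).

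Among 10 measured genes known to act on Hsd11b1 in some tissue, 9 were higher, with a median of 0.13, and 1 rose, against 50.5% of all genes higher and 35 of 16593 called as higher. This was Nr1h3, which encodes the oxysterol receptor LXR alpha, at 1.35-fold (log2 7.94 ± 0.58 against 8.38 ± 0.52, SD, n = 8 each, limma adjusted p = 0.0272 with the block). It was higher in 5 of 5 runs, and its call was lost without any 1 of WT13, WT14, CKO16, WT21 and WT42 (adjusted p up to 0.0919), as it was with the runs as a random block (0.616) or as pairs (0.299). With the mean of all its probes, Nr1h3 differed by 0.27 in place of 0.43 and did not pass (limma adjusted p = 0.0596 with the block). Cebpa and Cebpb, whose C/EBP proteins bind TTGCNNAA and were named here after their values were seen, differed by 0.25 (adjusted p = 0.172) and 0.14 (adjusted p = 0.607).

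Of 18 measured genes that respond to the glucocorticoid receptor, 12 were higher (50.5% of all genes), with a median of 0.042. With the block 2 rose and none fell, against 35 of all 16593 genes called as higher and 8 as lower. The protease inhibitor gene Serpina3n rose 2.63-fold (log2 7.24 ± 0.88 against 8.64 ± 1.90, n = 8 each, limma adjusted p = 0.0393), a call lost without any 1 of 10 of the 16 arrays (adjusted p up to 0.123). Like Hsd11b1 it varied between runs (interaction adjusted p = 0.00237), with differences of 2.75 in run 2 and -0.0096 in run 3. Angptl4, which encodes an inhibitor of lipoprotein lipase, rose 1.39-fold (adjusted p = 0.0495), a call lost without any 1 of 14 arrays (up to 0.138). Neither passed with a random block of runs (adjusted p = 0.597 and 0.595).

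**Figure D5:**
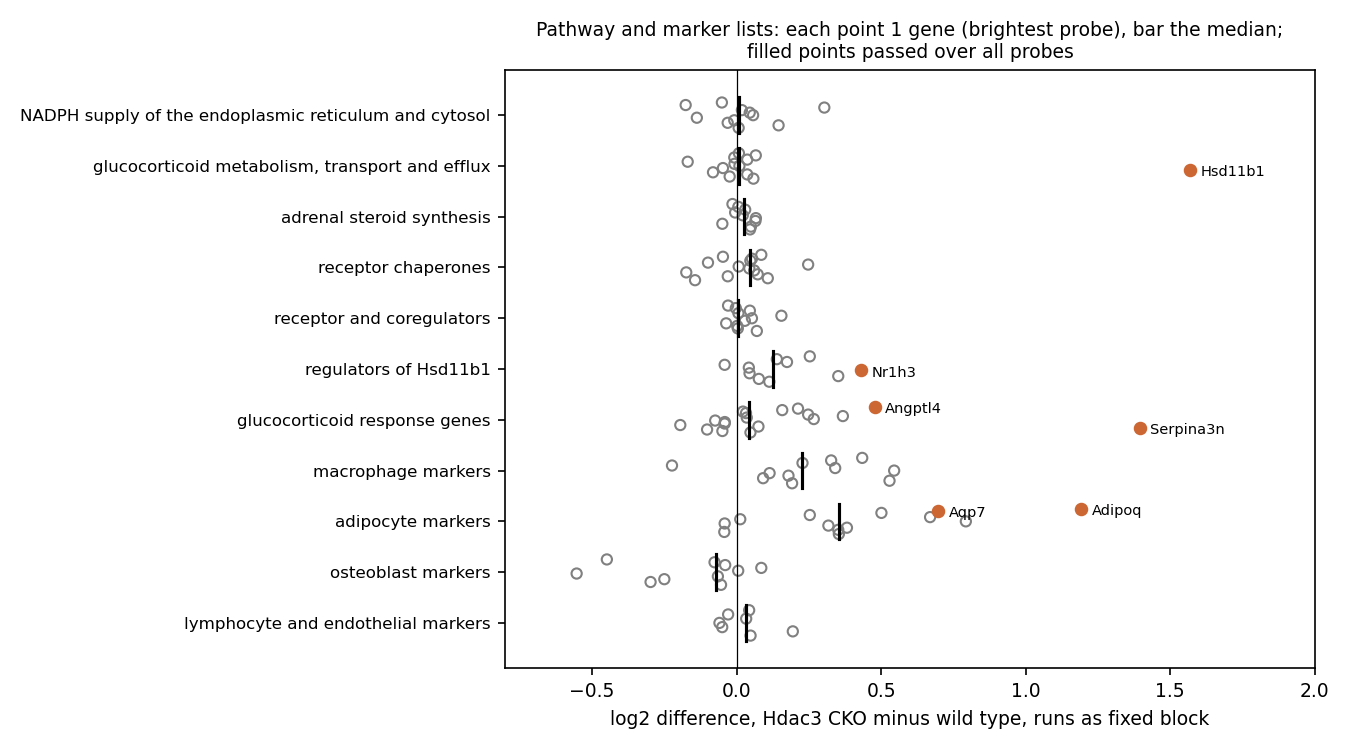
Genotype difference (log2, runs as a fixed block, limma) of each measured gene in the pathway and marker lists, 1 point per gene at its brightest probe, with the list median as a bar; filled points passed over all probes. Hsd11b1 lies far from the other genes of glucocorticoid metabolism, whose points lie close to 0.

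Among markers of other cell types, 2 adipocyte markers rose and no macrophage marker passed, against 35 of all 16593 genes called as higher with the block. Of 13 measured adipocyte markers, 6 of them above the median probe, 11 were higher (50.5% of all genes), and the mean of the list ranged from log2 7.30 to 7.94 in wild type and from 7.46 to 8.97 in Hdac3 CKO arrays. Adipoq, the adiponectin gene, rose 2.28-fold (limma adjusted p = 0.00105 with the block) and Aqp7, which encodes a channel for glycerol, 1.62-fold (0.0397, and up to 0.123 when any of 11 arrays was left out). Without a block neither passed (0.932 for Adipoq). They also did not pass with a random block of runs (0.653 and 0.597) or as pairs (0.178 and 0.333). Adjusting for the macrophage mean beside the runs lost both calls too (0.0539 for Adipoq). With the mean of all its probes, Aqp7 differed by 0.40 in place of 0.70 and did not pass (limma adjusted p = 0.0612 with the block). The adipocyte mean includes Adipoq and Aqp7, so losing their calls when it was adjusted for (0.729 for Adipoq) is no test of their genotype differences. The list mean differed by 0.99 in run 2, 0.36 in run 5, 0.26 in run 4, 0.16 in run 3 and 0.043 in run 1. Of 11 measured macrophage markers, all above the median probe, 10 were higher and 0 passed, with list means of 10.13 to 11.13 in wild type and 10.48 to 11.23 in Hdac3 CKO arrays. The fractalkine receptor gene Cx3cr1 (0.55), the mannose receptor gene Mrc1 (0.53) and Adgre1 (0.43) had adjusted p from 0.109 to 0.158. The macrophage mean differed by 0.70 in run 2, 0.21 in run 5 and 0.042 to 0.058 in runs 1, 3 and 4. In runs 1, 3 and 4 Hsd11b1 differed by 0.30, 1.13 and 0.79.

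With the mean of the macrophage markers as a covariate beside the runs, the Hsd11b1 difference was 1.02 and did not pass (limma adjusted p = 0.0838). With that of the adipocyte markers it was 0.78 (adjusted p = 0.978, in a fit that called 1 probe). Hsd11b1 had r = 0.736 with the adipocyte mean over 16 arrays (permutation p = 0.00087, adjusted 0.00261, rho 0.647, permutation p = 0.00783, adjusted 0.0235), which fell to 0.355 without CKO15 and CKO16 and so rests on those arrays, and was 0.928 with run means subtracted. Within Hdac3 CKO arrays r was 0.852 (exact permutation p = 0.00154, adjusted 0.0185) and rho 0.905 (adjusted exact p = 0.0548). Without CKO15 and CKO7, which leaves CKO16 in, r was 0.969. Within wild type arrays it was 0.223 (exact p = 0.587). With the macrophage mean r was 0.430 (permutation p = 0.0962, rho 0.424, permutation p = 0.105) and 0.856 with run means subtracted. With the osteoblast mean it was 0.0735 (permutation p = 0.784) and -0.609 with run means subtracted. Within Hdac3 CKO arrays the r with the osteoblast mean was 0.671 (exact permutation p = 0.0596, adjusted 0.179), and 0.937 without CKO15 and CKO7. Within wild type arrays it was 0.0418. The permutations over 16 arrays exchange arrays across genotypes and runs, and those within a genotype exchange them across runs. All these p-values may therefore be too small. The part of cell composition in the Hsd11b1 difference was not tested, and in these bulk cultures more cells of a type and more RNA per cell cannot be told apart. Among osteoblast markers Ibsp (-0.55), Alpl (-0.45) and Sp7 (-0.30) had adjusted p of 0.115, 0.163 and 0.247. Of the 10 measured, 0 passed and 8 were lower, with a median of -0.070, and the list mean differed by -0.53 in run 2, -0.33 in run 1, -0.067 in run 3, 0.11 in run 4 and 0.031 in run 5. Of 7 measured lymphocyte and endothelial markers 0 passed, with Pecam1 at 0.19, Kdr at -0.059 and Tek at 0.049 (adjusted p from 0.538 to 0.801).

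The genes whose pattern was most like that of Hsd11b1 were taken by Pearson r with its brightest probe over the 16 arrays, among 8710 genes brighter than the median probe. They were Parp12 (0.879), Abcd2 (0.879), Pparg (0.875), Mmd (0.873), Col4a2 (0.867), Mrap (0.856), Fitm2 (0.851) and Cd40 (0.850). With run means subtracted their r ran from 0.876 (Fitm2) to 0.993 (Mrap, the melanocortin receptor partner gene). When means of every run and genotype were subtracted it ran from -0.310 (Abcd2) and -0.109 (Mmd) to 0.862 (Mrap). H6pd stood 16th in this order with 0.821, and r was -0.191 for Hsd11b2 and -0.363 for Nr3c1. These are descriptions over arrays that share genotype and run. Of these, Abcd2, a peroxisomal fatty acid transporter gene, and Pparg, the adipogenic regulator, differed by 0.42 and 0.35. Neither passed with the block (limma adjusted p = 0.0667 and 0.136). Mrap differed by 0.95 and passed with the block (limma adjusted p = 0.00937) but not without it (0.932). A random block of runs called 0 of 25697 probes. The listed genes were picked on these same arrays by likeness to Hsd11b1, which itself differed between genotypes. Their genotype differences are therefore no independent finding.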

How the data were processed

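Total RNA for the 16 arrays had been biotin labelled by the standard Illumina protocol, per the labels. The deposited values are linear probe intensities that the authors appear to have quantile normalized: at 36.4% of ranks, the highest of 37892 among them, all arrays hold the same value, while minima and medians differ slightly. No source used here states the method. How background was treated, and with what software and filters, is not given in the sources used here. The lowest intensity was 53.1, so folds of dim probes are compressed. Intensities were floored at 16 and log2 transformed, with no further normalization. Of 25697 probes 23978 carried 1 symbol from the 2016 platform annotation, none several and 1719 none; 23962 were updated through Entrez identifiers to the GRCm38.p6 RefSeq table. The brightest probe stood for a gene.

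Genotype differences (Hdac3 CKO minus wild type) were tested at all probes with limma 3.58.1 in R 4.3.3 (two-sided, Benjamini-Hochberg over all probes, threshold 0.05), without a covariate and with the 5 runs as a fixed block. The interaction of run and genotype was tested the same way. Exact permutation tests of single probes exchanged arrays over all arrangements or within runs. Permutation tests of correlations over 16 arrays used 100000 draws (Python 3.11.15, scipy 1.17.1), those over 8 arrays all orders. Both kinds ignored the runs, and the former ignored the genotype too. Named genes are the members, Hdac3, in each list the genes past the threshold or else the 3 with the smallest p with the block, and the 8 most similar to Hsd11b1; Cebpa and Cebpb were added after their values were seen. The members, lists and tests were chosen with earlier results of these data known. No 2 arrays held identical values. The code was tested on simulated data. The number of arrays limits the precision.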

Additional observations from a re-analysis of the deposited data

Results flagged for a closer look

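The genotype difference of Hsd11b1 varied between runs of neighbouring title numbers, which drew attention to 3 of its 4 probes: the interaction of run and genotype had a limma adjusted p of 0.000158 (ILMN_3115917), 0.000212 (ILMN_1214998) and 0.000118 (ILMN_2774160), ranking 11 to 13 among all 25697 probes. The differences of ILMN_3115917 were 2.50 in run 2 and 2.10 in run 5 against 0.30 in run 1 (log2). The means of the adipocyte markers differed most in the same 2 runs (0.99 and 0.36), and their part in it was not tested.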

How the results depend on the processing

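Without a block Hsd11b1 was called in no setting other than the fixed block (1.57, adjusted p = 0.00377), and the number of called probes moved from 0 to 56. Leaving out single arrays without a block gave 1.41 to 1.78 for Hsd11b1, 0.26 to 0.36 for H6pd, -0.12 to -0.049 for Hsd11b2 and -0.059 to -0.0025 for Nr3c1, with 0 probes called each time. With the fixed block the Hsd11b1 difference was 1.47 to 1.75 without any single array, with an adjusted p of 0.000741 to 0.0138, and its call held in 11 of 17 other settings. The call was lost with the runs as a random block (1.57), as 5 pairs (1.37), without run 2 (1.26), and with the macrophage (1.02) or adipocyte (0.78) marker level as a covariate; the cause was not tested. The rank test within runs (1.57) gave the smallest p it can give, 0.00231, which did not pass over 25697 probes. With the block H6pd was 0.24 to 0.35, Hsd11b2 -0.12 to -0.044 and Nr3c1 -0.063 to 0.011 without single arrays. The sign of Nr3c1 turned without WT44 (0.011), without run 5 (0.011 in both fits), and with the macrophage (0.023, and 0.0029 without a block) or adipocyte (0.011) covariate. The interaction for Hsd11b1 had an adjusted p of 0.000119 to 0.00211 without single arrays and lost its call with the adipocyte covariate (0.0715), and that of H6pd ran from 0.186 to 0.959 and passed with the macrophage covariate (0.00924).

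With the block, the number of called probes was 12 to 149 without single arrays: leaving out WT30 or CKO32 gave 149, WT22 34, CKO47 or CKO24 32, WT42 16, WT21, CKO16, WT14 or WT13 13, and CKO15 12. It was 0 with the random block, 5 pairs or the rank test (2043, 2563 and 869 at an unadjusted p under 0.05), 5, 15, 149 and 20 without runs 2, 3, 4 and 5, 9 without WT13 and WT14, which lack Y-linked RNA, 3 and 1 with the macrophage and adipocyte covariates, and 34 with the mean of all probes of a gene (16593 tested). Runs 1 and 4 hold 1 array per genotype. With the block, leaving out either array takes the whole run out of the genotype difference, as leaving out the run does. Leaving out WT13 and WT14 does the same for run 2. These settings are not separate checks of the difference.

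Of 1642 values of 26 other named genes under the alternatives, 18 turned sign, none of them called. Without a block and with the macrophage covariate these were Rpia (0.00075), Fkbp4 (0.016), Ncoa1 (-0.0059), Ipo13 (-0.026), Cx3cr1 (-0.29), Ibsp (0.27), Pecam1 (-0.085) and Tek (-0.036). Tek also turned without CKO32 (-0.0079, against up to 0.10 without other single arrays), Ibsp without WT13 and WT14 (0.22), Ncoa2 without run 2 (-0.023 in both fits) and Adipoq with the adipocyte covariate (-0.45). The macrophage mean includes Cx3cr1 and the adipocyte mean includes Adipoq, so these turns of Cx3cr1 and Adipoq are no test of their genotype differences. With the block Ncoa2 turned without WT13 and WT14 (-0.023) and with the macrophage (-0.049) or adipocyte (-0.066) covariate, and the latter turned Ncoa1 (-0.060) and Sp7 (0.061). No paired analysis by replicate number was possible because the genotypes share no title number. Hsd11b2 and Nr3c1 have no value with dim probes left out, and the mean of all probes turned the sign of the uncalled medians of NADPH supply (-0.0079) and glucocorticoid metabolism (-0.0041).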
